A study of Mus musculus with 2 samples.

Results

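The forkhead (Fox) genes encode transcription factors that share a winged-helix DNA-binding domain, and their transcripts were measured here in whole mouse adrenal gland. The family was taken as every gene whose symbol is Fox followed by 1 letter and a number and that has at least 1 transcript typed as protein-coding, which gave 44 genes of 55536 annotated genes and of 22015 nuclear protein-coding genes. The rule uses names and transcript types and no measured values, but it was set with earlier results of these data known. Related names such as Foxd2os, Foxo6os and Foxred1 fall outside the rule.

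The glands came from B6CASTF1/J females aged 2 months, which carry 1 genome from a C57BL/6J parent and 1 from a CAST parent. Each library was made from 300 ng of total RNA depleted of ribosomal RNA and carried ERCC spike-ins. The labels give 1 group with biological replicates 1 and 2, named animal 1 and animal 2 below, so that differences between the animals could be described but not tested. The labels conflict on whether the animals are distinct: the library descriptions name the same animal for both, while the biosample descriptions name different ones. The replicate numbers were followed, and an SD over the 2 libraries measures only the spread between these samples, which may be technical. RNA of both parental genomes was quantified on mm10, a C57BL/6J assembly.

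Forkhead factors bind DNA through a recognition helix that lies in the major groove, and the letter after Fox names the subfamily. The FoxO factors are held out of the nucleus when insulin or growth factor signalling activates the kinase Akt, and otherwise switch on genes of stress resistance, cell cycle arrest and fuel use. FoxA factors open chromatin in endoderm, FoxK and FoxP factors mostly repress, FoxM1 drives genes of mitosis, and FoxJ1 drives motile cilia. In the adrenal gland the steroid-making cortex surrounds the catecholamine-making medulla, and both are supplied by a dense bed of capillaries.

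The sequence below is the 24 coding bases of the recognition helix core, 8 codons, and it is shown because every abundant member shares this stretch while the letters between members differ. It was read from the matching protein-coding transcript of GENCODE M21 with the longest coding sequence, 5′ to 3′ on the coding strand, with mm10 positions. A strict pattern of 8 residues matched 32 members, a relaxed pattern matched 10 more, and Foxh1 and Foxr1 had no match. Capitals mark bases that differ from the commonest base at that position over the 42 matched members. The stretch is given for 9 of the 11 most abundant members.
Foxo3, chr10:42197878-42197901, minus strand: aactccatccgGcacaacctgtcc
Foxo4, chrX:101258177-101258200, plus strand: aactccatccgTcacaacctgtcc
Foxk1, chr5:142451439-142451462, plus strand: aactcTatccgAcacaacctCtcT
Foxk2, chr11:121296029-121296052, plus strand: aaTtcAatTcgccacaaTctCtcT
Foxn3, chr12:99388403-99388426, minus strand: aactcAGtGAgAcacaacTtgtcA
Foxn2, chr17:88463198-88463221, plus strand: aaTtcTGtTcgGcaTaaTctAtcc
Foxj3, chr4:119585750-119585773, plus strand: aaTtcTatAcgAcaTaaTctgtcA
Foxj2, chr6:122831436-122831459, plus strand: aaTtccatTcgAcacaacctTtcc
Foxp4, chr17:47871328-47871351, minus strand: aaTGccGtGcgccacaacctCAGc

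Foxo3 and Foxo4 differed from the commonest bases at 1 position each, Foxk1 and Foxj2 at 4, and Foxn2 at 8. Over the 42 members 7 of the 24 positions held the same base in all, and 115 of the 180 differences, 63.9%, lay at the third base of a codon. All of these stretches lie in coding exons. In the gene tables the expected counts of 42 of the 44 members were whole numbers in both libraries, the exceptions being Foxp1 and Foxm1. In the second quantification of the same reads further members were not whole, such as Foxn3 with 3695.88 counts in animal 1 and 3760.75 in animal 2. Foxp1 and Foxm1 overlap Gm20696 and Tex52 on the same strand. Members with whole counts also overlap genes on the same strand, such as Foxo1 with Gm38034 and Foxn3 with Gm47138. How reads were divided between paralogs or overlapping genes was not tested.

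Few forkhead genes were abundant in adrenal gland. At 1 TPM (a relative transcript number that takes account of transcript length) or more in both libraries there were 13 of 44 members, 29.5%, against 53.5% of protein-coding genes. At 5 TPM or more in both there were 11, and these held 94.1% of the family's summed TPM in animal 1 and 93.7% in animal 2. The family's sum was 128.21 TPM in animal 1 and 141.93 TPM in animal 2 (135 ± 9.70, SD, n = 2). That was 0.0404% of protein-coding TPM in animal 1 and 0.0398% in animal 2, whereas the members are 0.200% of protein-coding genes. The lowest of the 11, Foxk1, had a mean of 6.16 TPM, and the next member, Foxc1, had 2.33 TPM. The median protein-coding gene detected in both libraries had 10.52 TPM, and 5 members were above it. The most abundant member, Foxn3, ranked 3143 among protein-coding genes.

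**Figure D1:**
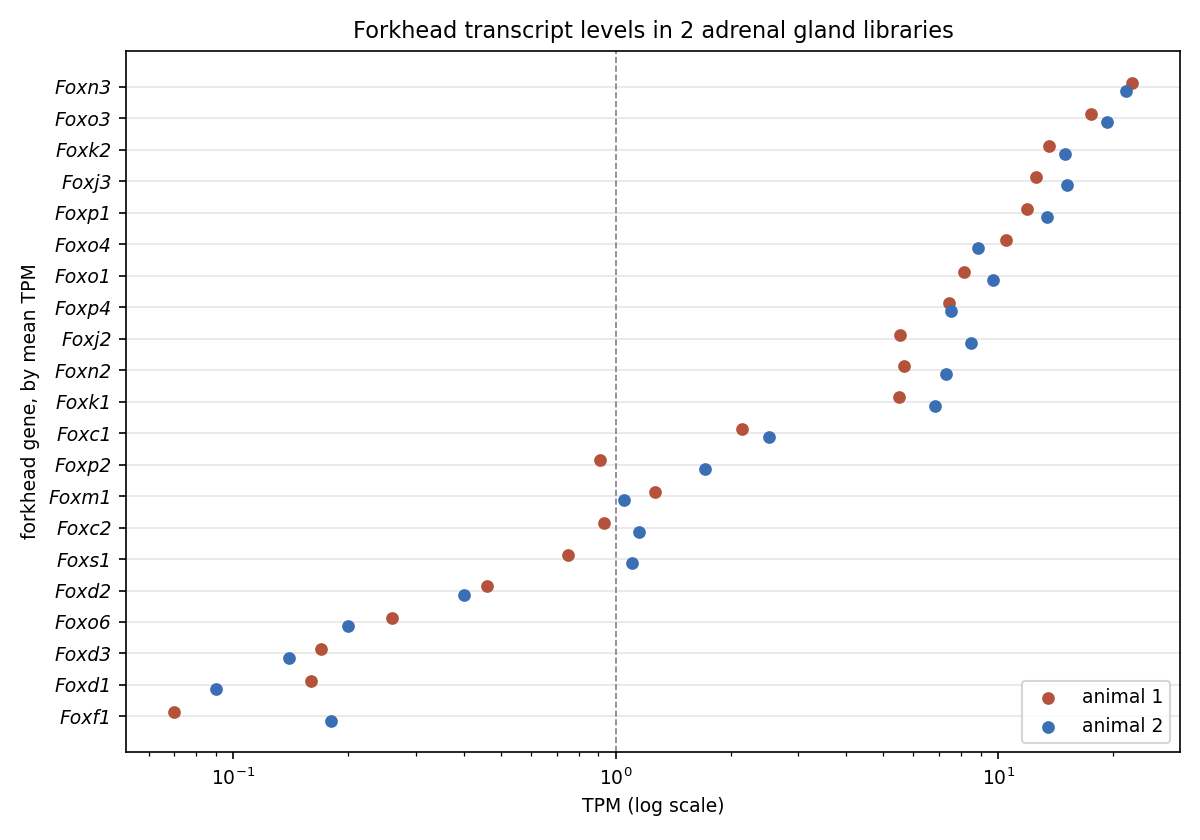
TPM of the 21 most abundant forkhead genes with a value above 0 in both libraries, on a log axis, with 1 point per library and genes in order of mean TPM. The dashed line marks 1 TPM. The points of the 11 upper genes lie between 5.49 and 22.37 TPM, and a step separates them from Foxc1.

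By subfamily the FoxO genes held the largest part, 28.3% of the family's TPM in animal 1 and 26.8% in animal 2 (27.6 ± 1.09, SD, n = 2). The FoxN genes held 21.9% in animal 1 and 20.4% in animal 2. The FoxP, FoxJ and FoxK genes each held 14.1% to 16.6% in either animal, and the order among these did not hold across animals. The FoxC genes held 2.39% in animal 1 and 2.59% in animal 2, and each of the other 13 subfamilies held under 1%.

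**Figure D2:**
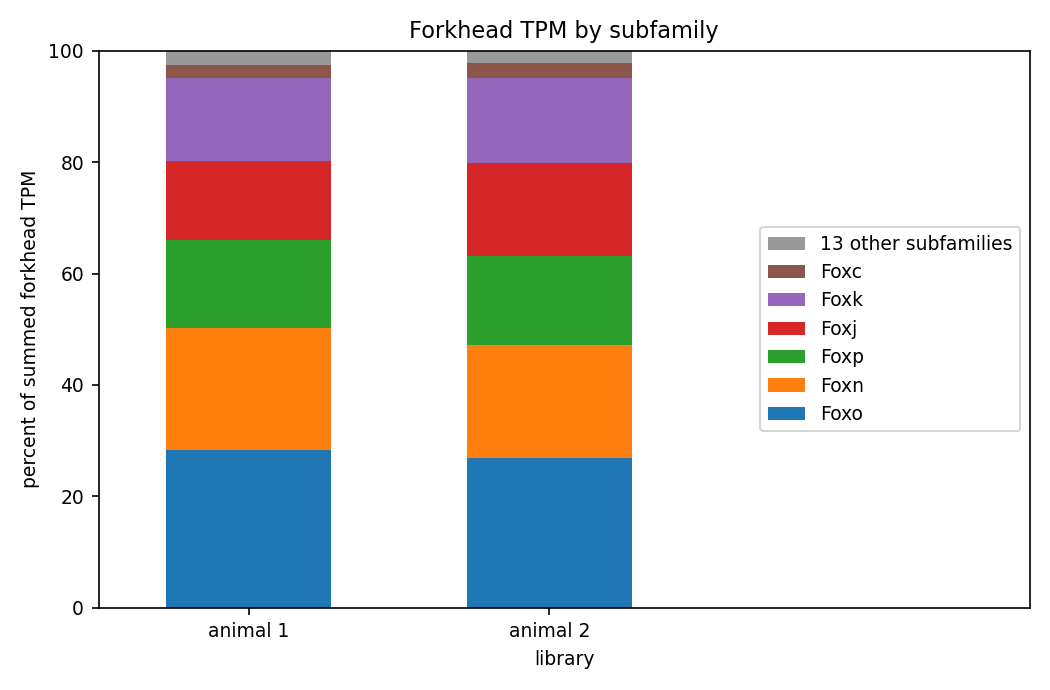
Percent of the summed forkhead TPM held by each subfamily in the library of animal 1 and of animal 2, as stacked bars that reach 100%. Foxo takes 28.3% in animal 1 and 26.8% in animal 2, and Foxo, Foxn, Foxp, Foxj and Foxk take nearly all of both bars.

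Among the FoxO genes Foxo3, a factor of stress resistance and autophagy, had 17.45 TPM in animal 1 and 19.28 TPM in animal 2. Foxo4 had 10.49 TPM in animal 1 and 8.88 TPM in animal 2. Foxo1, which drives gluconeogenic genes in liver, had 8.14 TPM in animal 1 and 9.69 TPM in animal 2. Foxo3 was above the other FoxO genes in both libraries, and the ranges of Foxo4 and Foxo1 overlapped. Foxo6, known mostly from brain, had 0.26 TPM in animal 1 and 0.20 TPM in animal 2, on 23 and 17 counts. Ratios between animals were taken from expected counts scaled by the trimmed mean of M-values, with exact 95% intervals that cover counting error only. Foxo3 had 3787 counts in animal 1 against 3943 in animal 2, which gave a ratio of 0.971 (0.928 to 1.02), animal 1 over animal 2. Foxo4 had 960 counts in animal 1 against 799 in animal 2, which gave a ratio of 1.21 (1.10 to 1.34). Foxo1 had 2439 counts in animal 1 against 2742 in animal 2, so that it was 1.11-fold higher in animal 2 (1.05 to 1.17). The Foxo4 and Foxo1 intervals lay on opposite sides of 1, but with 1 library per animal a difference between animals cannot be told apart from one between libraries. In a whole gland fewer cells of a type and less RNA per cell cannot be told apart.

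Of the FoxN genes Foxn3, a checkpoint-linked repressor, was the most abundant member of the family, with 22.37 TPM in animal 1 and 21.54 TPM in animal 2. It spans chr12:99190078-99563582 on the minus strand. Its range did not overlap that of Foxo3, and its count ratio was 1.01 (0.958 to 1.06) on 3140 counts in animal 1 against 3153 in animal 2. Foxn2 had 5.68 TPM in animal 1 and 7.29 TPM in animal 2, and its interval, 0.858 to 1.03, held 1. Foxn1, the factor of thymic epithelium, had 7 counts in animal 1 and 10 in animal 2, and Foxn4 had none in either. In the second quantification Foxo3 had 30.6 TPM in animal 1 and 36.1 TPM in animal 2, and Foxn3 had 32.9 TPM in animal 1 and 28.9 TPM in animal 2, so the order of these members depended on the quantification.

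The FoxK genes, repressors of autophagy and starvation genes that bind the deubiquitinase Bap1, were both abundant. Foxk2 had 13.62 TPM in animal 1 and 14.95 TPM in animal 2, and Foxk1 had 5.49 TPM in animal 1 and 6.83 TPM in animal 2. By counts the ratio was 1.03 (0.972 to 1.09) for Foxk2 and 0.849 (0.789 to 0.913) for Foxk1, so only the interval of Foxk1 excluded 1.

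Among the FoxP genes, which pair with one another through a leucine zipper, Foxp1 had 11.87 TPM in animal 1 and 13.42 TPM in animal 2 and Foxp4 had 7.42 TPM in animal 1 and 7.55 TPM in animal 2. Their count ratios, 0.920 (0.845 to 1.00) and 0.974 (0.883 to 1.08), did not exclude 1. Foxp2, at chr6:14901349-15441977 on the plus strand and known for its part in vocal learning circuits, had 0.91 TPM in animal 1 and 1.71 TPM in animal 2, on 139 counts in animal 1 and 245 in animal 2. It was thus below 1 TPM in animal 1 only. The difference in counts between animals was the largest of any member with at least 100 mean counts in the gene tables, 1.74-fold higher in animal 2 (1.41 to 2.16). In the second quantification Foxp2 had 2.17 TPM in animal 1 and 2.64 TPM in animal 2, above 1 TPM in both, and its log2 ratio of -0.57 was within 1.5-fold. Foxp3, the factor of regulatory T cells, had 1 count in animal 1 and 0 in animal 2. Lymphocyte markers had a sum of 0.54 TPM in animal 1 and 0.67 TPM in animal 2, with 0 of 7 at 1 TPM, and Ctla4 was at 0 in both.

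Foxj3 had 12.54 TPM in animal 1 and 15.11 TPM in animal 2, and its count ratio was 0.903 (0.840 to 0.971). Foxj2 had 5.53 TPM in animal 1 and 8.47 TPM in animal 2, a TPM 1.53-fold higher in animal 2. Its counts were 984 in animal 1 against 1055 in animal 2, and their ratio of 0.943 (0.864 to 1.03) held 1, so counts and TPM gave differences of unequal size. The effective length assigned to Foxj2 was 5088 bases in animal 1 and 3770 bases in animal 2, and the 693-base transcript Foxj2-203 took 0% of its TPM in animal 1 and 28.83% in animal 2. In the second quantification that transcript took 17.8% in animal 1 and 51.2% in animal 2. How far the length estimate sets the TPM difference was not tested. Foxj1, the factor of motile cilia, had 5 counts in animal 1 and 4 in animal 2. Of 10 genes of the motile cilium, 1 was at 1 TPM or more in both libraries, the radial spoke gene Rsph1, with 2.06 TPM in animal 1 and 1.56 TPM in animal 2.

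Foxc1 and Foxc2, factors of mesenchyme and vessel development, had 2.14 and 0.93 TPM in animal 1, against 2.52 and 1.15 TPM in animal 2. Foxc1 had 429 counts in animal 1 against 478 in animal 2, with a ratio of 0.907 (0.795 to 1.04). Endothelial markers had a sum of 182 TPM in animal 1 and 205 TPM in animal 2 with 7 of 7 at 1 TPM or more, and mural cell markers 64.59 TPM in animal 1 and 65.01 TPM in animal 2 with 6 of 6, none of either list at 0. By scaled counts 6 of the 7 endothelial and 5 of the 6 mural markers were higher in animal 2, and 1 of each list in animal 1. The mural marker Acta2 was over 1.5-fold apart, with 537 counts in animal 1 and 827 in animal 2. Foxm1, the factor of mitotic genes, had 1.27 TPM in animal 1 and 1.05 TPM in animal 2, on 119 and 121.94 counts. Of 12 FoxM1 targets 4 were at 1 TPM or more in both. The mitotic enzyme Top2a, the highest, had 2.07 TPM in animal 1 and 2.81 TPM in animal 2, and the proliferation marker Mki67 had 1.37 TPM in animal 1 and 1.89 TPM in animal 2.

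A mean under 1 TPM was found for the other 29 members, and 18 of these had any count. Apart from those of the FoxO, FoxN, FoxP and FoxJ subfamilies above, those given by value here were chosen after their values were seen. Foxs1 had 0.75 TPM in animal 1 and 1.10 TPM in animal 2 on 32 and 44 counts. Foxd2 had 40 counts in animal 1 and 33 in animal 2, and Foxd3, a neural crest factor, had 13 counts in animal 1 and 10 in animal 2. Foxd1, a factor of kidney stroma, had 28 counts in animal 1 against 14 in animal 2, with a ratio of 1.99 (1.03 to 4.16). Foxq1 had 11 counts in animal 1 and 0 in animal 2, too few for a ratio to be read. Kidney markers had a sum of 20.09 TPM in animal 1 and 0.68 TPM in animal 2, with 0 of 9 at 1 TPM or more in both libraries. Of these Kap had 350 counts (16.46 TPM) in animal 1 and 0 in animal 2, and Atp6v1g3 was at 0 in both. Aqp2 had 13 counts in animal 1 and 12 in animal 2, and Atp6v0d2 had 5 in animal 1 and 6 in animal 2. The 5 kidney markers with at least 10 mean counts were all higher in animal 1 by scaled counts. The part of kidney RNA in these members was not tested. The FoxA genes, liver and endoderm factors, had 6, 4 and 2 counts in animal 1 for Foxa1, Foxa2 and Foxa3, against 1, 2 and 0 counts in animal 2. Liver markers had a sum of 185.27 TPM in animal 1 and 117.62 TPM in animal 2, with 5 of 5 at 1 TPM or more in both and all 5 over 1.5-fold higher in animal 1. Pancreas markers had a sum of 22.34 TPM in animal 1 and 18.78 TPM in animal 2, with 1 of 5 at 1 TPM or more in both. The 3 pancreas markers with at least 10 mean counts were all higher in animal 1, but to unequal degrees. Cela1, the only one at that level in both libraries, was 1.14-fold higher (1.02 to 1.27), on 702 counts against 622 in animal 2. Their median log2 ratio, 4.16, was that of Pnlip, with 26 counts against 1 in animal 2, and Ctrb1 had 27 against 0. None of the liver or pancreas markers was at 0 in both libraries. The part of liver or pancreas RNA in the FoxA counts was not tested. Foxl2, the factor of ovarian granulosa cells, had 3 counts in animal 1 and 7 in animal 2. Ovary markers had a sum of 7.55 TPM in animal 1 and 8.64 TPM in animal 2, with 2 of 5 at 1 TPM or more in both. These were Inha, with 5.13 TPM in animal 1 and 5.19 TPM in animal 2, and Gdf9, with 2.07 TPM in animal 1 and 3.12 TPM in animal 2. Amh had 0.33 TPM in each library, and Fshr was at 0 in both. The part of ovary RNA in the Foxl2 counts was not tested. The 11 members at 0 counts in both gene tables included Foxb1, Foxb2, Foxd4, Foxe1, Foxe3, Foxf2, Foxi1, Foxi3, Foxn4 and Foxr1. By the second quantification Foxr1 had 6.02 counts in animal 1 and 9.04 in animal 2, Foxf2 had 4.38 in animal 1 and 1.86 in animal 2, and Foxb1 had 3 in animal 1 and 1.01 in animal 2, so that a 0 for these depended on the quantification. In the gene tables a count of 0 allows up to 0.0877 CPM in animal 1 and 0.0834 CPM in animal 2, for counting error only.

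Of 14 members with at least 100 mean counts 1, Foxp2, was over 1.5-fold apart between animals. Among the 12171 genes with that many counts the share was 5.68%, near 1 of 14. In the second quantification 0 of the members were over 1.5-fold apart. None of the 14 was over 2-fold apart, against 1.37% of the 12171 genes. With 14 members, neither count can be told apart from the share of all genes. Of the 14, 3 were higher in animal 1 (Foxo4, Foxk2 and Foxn3) and 11 in animal 2, but scaling by total counts put 6 higher in animal 1 and DESeq2 size factors put 2. With the trimmed mean of M-values scaling the intervals of 5 excluded 1, those of Foxo4, Foxo1, Foxj3, Foxk1 and Foxp2. No share of all genes with such an interval was taken, so the 5 cannot be set against one. Intervals were not taken under the other scalings, and with ERCC scaling the log2 ratio of Foxo4 fell from 0.28 to 0.08. The median absolute log2 ratio was 0.10 over the 14 members and 0.17 over the 12171 genes, which were not matched to the members for number of counts. Over the 21 members with at least 10 mean counts the median log2 ratio was -0.08, animal 1 over animal 2, against 0.02 over 17308 genes. Scaling by ERCC spike-in totals moved the median of all genes to -0.19 and that of the members to -0.29, and 1 of the 14 members was then higher in animal 1.

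**Figure D3:**
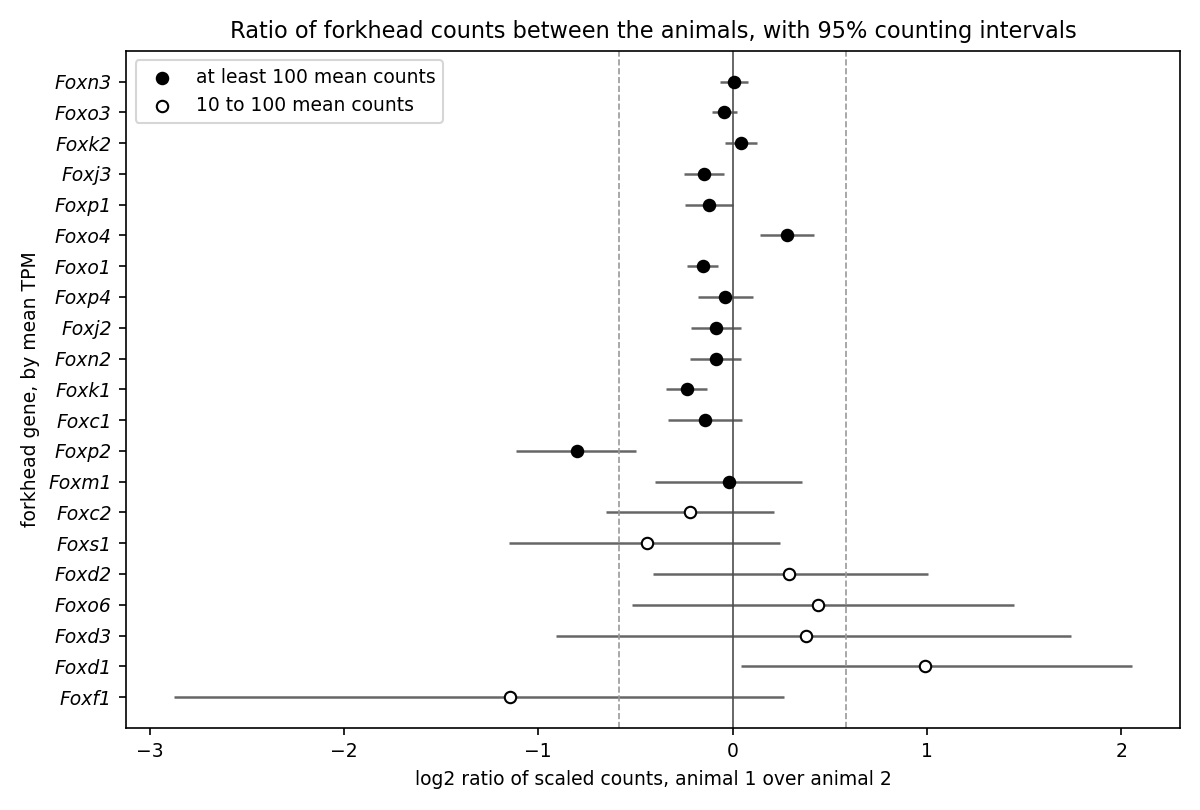
Log2 ratio of scaled counts, animal 1 over animal 2, of the 21 forkhead genes with at least 10 mean counts, with 95% counting intervals as bars and genes in order of mean TPM. Filled points have at least 100 mean counts, and dashed lines mark 1.5-fold. Of the filled points only Foxp2 lies beyond a dashed line.

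All annotated protein-coding transcripts of 13 members had 1 exon, and 1 of these, Foxc1, was at 1 TPM or more in both libraries. Of the 31 other members 12 were at that level and 19 were not. The median of mean TPM was 0.05 TPM over the 13 and 0.085 TPM over the 31, so most members of both kinds were low. The 11 most abundant had 3 to 20 exons in the coding transcript with the most exons. Some members lie near one another: Foxq1, Foxf2 and Foxc1 lie on chromosome 13 with gaps of 64.8 and 175.2 kb, and Foxf1, Foxc2 and Foxl1 lie on chromosome 8 with gaps of 28.0 and 9.0 kb. Gm20388, a protein-coding gene annotated over all 3 chromosome 8 genes on the same strand, had 3.19 TPM in animal 1 and 3.42 TPM in animal 2. Its expected counts were 430.43 in animal 1 and 435.02 in animal 2, while those of Foxf1, Foxc2 and Foxl1 were whole numbers in both libraries. How reads there were divided was not tested. Foxd2os, which lies next to Foxd2 on the other strand, had 37 counts in animal 1 and 20 in animal 2.

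Promoter windows of 300 bases, 250 before to 50 after the start, were taken from RefSeq (GRCm38.p6) for the 28 members that matched, in 33 windows. The 11 windows of members with a mean of at least 1 TPM had a median of 33 CpG dinucleotides, from 5 to 59, the 22 windows of lower members had a median of 14, from 3 to 31, and all 32851 windows used had a median of 7. Those 11 windows came from only 9 of the 15 members with such a mean, with more than 1 from Foxp1. The most abundant member, Foxn3, had 6 CpG, in a window at chr12:99450025-99450324 that lies inside the annotated gene. The motif GTAAACA, searched on both strands, was in 1 of the 33 windows, that of Foxa1, and in 3.65% of all windows. A match is a description and not a binding site.

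The transcript tables divide a gene's reads among its annotated transcripts. Of the 15 members with a mean of at least 1 TPM, 12 have more than 1 transcript, and by the mean of the libraries the leading transcript was the same in both quantifications for 11 of these, not for Foxp1. Within an animal it could differ: Foxj2 in animal 2 was led by Foxj2-201 with 57.42% in the first tables and by Foxj2-203 with 51.2% in the second. Foxo3-203 took 88.1% of Foxo3 TPM in animal 1 and 86.5% in animal 2, but 82.8% in animal 1 and 57.2% in animal 2 in the second quantification. Foxk2-201 took 96.8% of Foxk2 TPM in animal 1 and 91.0% in animal 2. Foxn3-201 took 44.7% of Foxn3 TPM in animal 1 and 49.7% in animal 2, with the 696-base Foxn3-205 next at 24.1% in animal 1 and 18.1% in animal 2. The second quantification gave Foxn3-205 0% in animal 1 and 0.04% in animal 2, and Foxn3-209 was next with 22.9% in animal 1 and 28.6% in animal 2. Foxp2 showed the widest difference: Foxp2-201 took 8.91% of its TPM in animal 1 and 68.2% in animal 2, and Foxp2-207 took 41.05% in animal 1 and 0% in animal 2. In the second quantification Foxp2-201 took 20.6% in animal 1 and 50.2% in animal 2, and Foxp2-204 led in animal 1 with 26.4%, against 24.3% in animal 2.

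**Figure D4:**
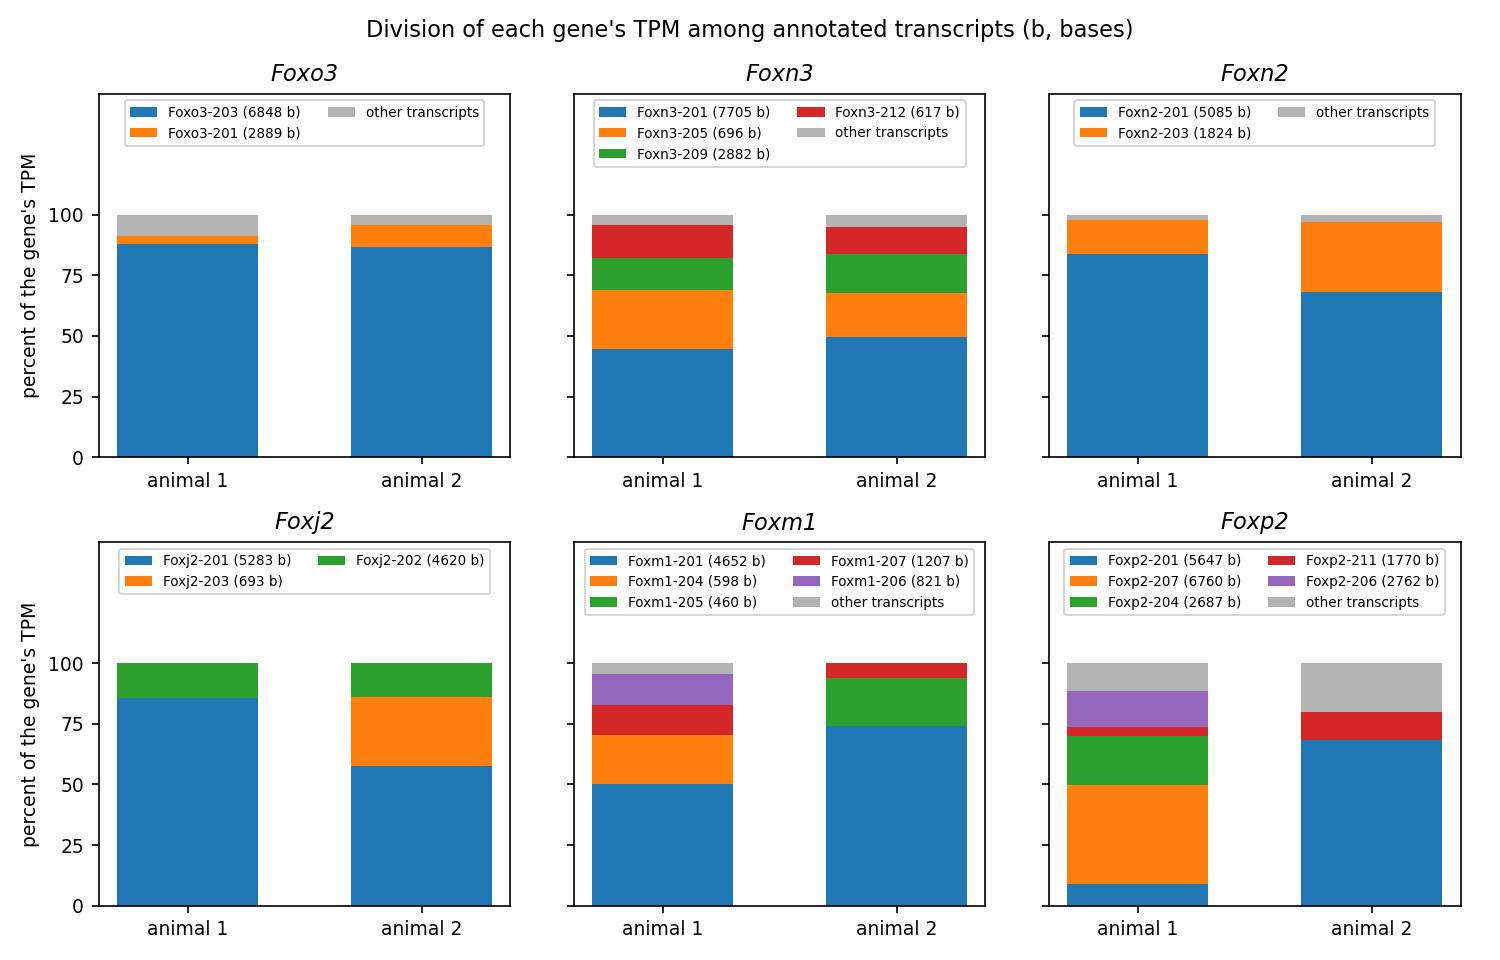
Percent of each gene's TPM assigned to its annotated transcripts in animal 1 and animal 2, for Foxo3, Foxn3, Foxn2, Foxj2, Foxm1 and Foxp2, with transcript lengths in bases and gray for all others. Foxo3-203 takes 88.1% in animal 1 and 86.5% in animal 2, while Foxj2-203 takes 0% in animal 1 and 28.83% in animal 2 and Foxp2-201 takes 8.91% in animal 1 and 68.2% in animal 2.

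Genes that act with these factors were taken from lists of known partners and targets, and the most abundant of each list are given in order of mean TPM. All 14 kinases and receptors upstream of FoxO were at 1 TPM or more, and none was over 1.5-fold apart, against 5.68% of all genes with at least 100 mean counts. The kinase Akt1 had 126.66 TPM in animal 1 and 128.07 TPM in animal 2, Akt2 had 62.66 TPM in animal 1 and 78.58 TPM in animal 2, and Sgk1 had 44.62 TPM in animal 1 and 53.28 TPM in animal 2. Their median log2 ratio was 0.06, with 9 of 14 higher in animal 1, and -0.15 with ERCC scaling. The most abundant modifiers and binding partners of FoxO were the catenin Ctnnb1, with 234.54 TPM in animal 1 and 250.88 TPM in animal 2, and the 14-3-3 genes Ywhae, with 212.27 TPM in animal 1 and 227.68 TPM in animal 2, and Ywhag, with 180.37 TPM in animal 1 and 195.18 TPM in animal 2. Of the 16 in that list, 1 of 15 with at least 100 mean counts was over 1.5-fold apart, the acetyltransferase Crebbp, 1.53-fold higher in animal 2 (1.48 to 1.59), with 4828 counts in animal 1 and 7473 in animal 2. As a share, 1 of 15 is near the 5.68% of all such genes. Of the 10 FoxK partners 9 were at 1 TPM or more, led by the corepressor Sin3b with 90.00 TPM in animal 1 and 84.88 TPM in animal 2. Next came the glycosyltransferase Ogt with 42.48 TPM in animal 1 and 55.25 TPM in animal 2, and the deacetylase Hdac2 with 27.94 TPM in animal 1 and 29.13 TPM in animal 2. Of the 12 FoxP corepressor partners 12 were, led by Ctbp1 with 78.73 TPM in animal 1 and 71.54 TPM in animal 2. Next came the remodeller Chd4 with 46.73 TPM in animal 1 and 54.06 TPM in animal 2, and Rbbp7 with 48.46 TPM in animal 1 and 51.22 TPM in animal 2. No gene of either list with at least 100 mean counts was over 1.5-fold apart. Of 21 FoxO targets 18 were at 1 TPM or more, led by Pck1, the gluconeogenic enzyme, with 211.86 TPM in animal 1 and 318.86 TPM in animal 2. Next by mean TPM came the antioxidant enzymes, Cat with 137.92 TPM in animal 1 and 190.00 TPM in animal 2, and Sod2 with 138.19 TPM in animal 1 and 160.81 TPM in animal 2. Over the 20 targets with at least 10 mean counts the median log2 ratio was -0.09, and 8 were higher in animal 1 and 12 in animal 2. Of the targets with under 100 mean counts Igfbp1, a liver gene chosen here after its values were seen, had 36 counts in animal 1 and 7 in animal 2.

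Of 18 FoxO targets with at least 100 mean counts 3 were over 1.5-fold apart, all higher in animal 2, against 5.68% of all genes with that many counts. G6pc, the glucose-releasing phosphatase, had 194 counts in animal 1 and 636 in animal 2, 3.24-fold higher in animal 2 (2.76 to 3.83). Bcl6, a repressor, had 1420 counts in animal 1 and 2955 in animal 2, 2.06-fold higher in animal 2 (1.93 to 2.19). Pdk4, which restrains pyruvate oxidation, had 7477 counts in animal 1 and 12006 in animal 2, 1.59-fold higher in animal 2 (1.54 to 1.64). Brown fat markers were also higher in animal 2: their sum was 565 TPM in animal 1 and 1148 TPM in animal 2, with 5 of 5 at 1 TPM or more in both, none at 0, and all 5 over 1.5-fold higher in animal 2. The liver markers, given above, were higher in animal 1. The part of either tissue in these targets was not tested.

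**Figure D5:**
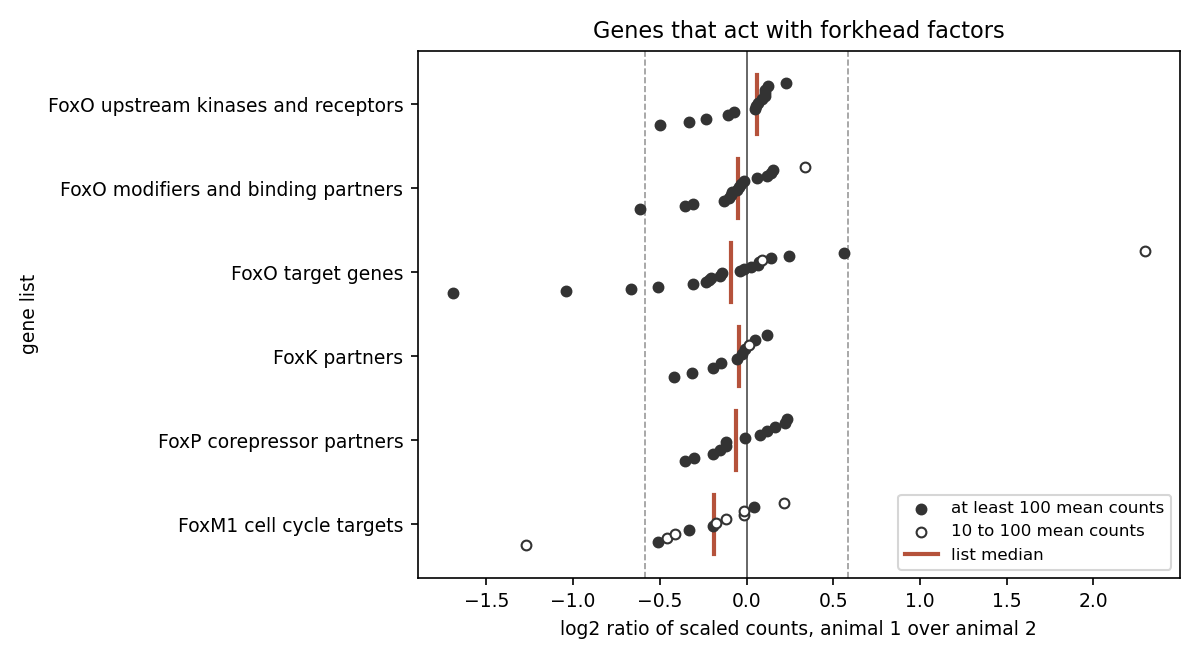
Log2 ratio of scaled counts, animal 1 over animal 2, of genes with at least 10 mean counts in 6 lists of genes that act with forkhead factors. Points are genes, red bars are list medians and dashed lines mark 1.5-fold. G6pc, Bcl6 and Pdk4 among the FoxO targets lie beyond the left line, and Igfbp1, with under 100 mean counts, lies at the far right.

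The libraries held 34203660 expected counts on genes in animal 1 and 35959480 in animal 2, and 313896 and 275353 on spike-ins. Markers of the tissue were present: cortex markers had a sum of 12461 TPM in animal 1 and 14304 TPM in animal 2, and chromaffin markers one of 1098 TPM in animal 1 and 924 TPM in animal 2, with 5 of 5 and 4 of 4 at 1 TPM or more in both.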

How the data were processed

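Total RNA-seq of 2 adrenal gland libraries was used. Per the deposited file descriptions, the tables rest on mm10 and GENCODE M21. The file headers have the column names written by RSEM for the gene table and its transcript table, and by kallisto for a second transcript table. For the aligner, program versions and settings, values are not given in the sources used here. An expected count was deposited by the authors, an estimated number of reads, per gene and transcript. TPM as deposited gives each row's relative number of transcripts, and a file's rows, spike-ins among them, add to a fixed total. The deposited percent is, per the file headers, what each transcript takes of its gene's TPM.

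Rows that name no gene (26249, holding 5.79 counts in animal 1 and 1 in animal 2) and the 96 ERCC rows stayed out of library sizes. Expected counts were rounded for the trimmed mean of M-values scaling of edgeR 4.0.16 (factors 1.02 and 0.981) and used as deposited for ratios, animal 1 over animal 2, with a prior of 0.5 counts. DESeq2 1.42.0 size factors were an alternative. Intervals at 95% are exact Clopper-Pearson intervals of animal 1's part of a gene's counts, and cover counting error only. With 1 group no comparison between groups was tested. Steps were tested on simulated data.

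The members and gene lists were chosen with earlier results of these data known. Named are all members with a mean of at least 1 TPM, lower members of subfamilies that have an abundant member, members at 0, and, of each list, the 3 most abundant genes and up to 4 over 1.5-fold apart with at least 100 mean counts. Of these, 1 member at 0 and the coding stretches of some members are not reported here. Others are said to be chosen after their values were seen. Alternatives were the detection threshold, the scaling, the filter on counts, the fold, TPM in place of counts, the denominator, the second quantification and leaving out each library.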

Additional observations from a re-analysis of the deposited data

How the results depend on the processing

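The number of members detected was 13, and 11 to 16 under every alternative run (thresholds of 0.5 and 5 TPM, the second quantification, either library alone, and the mean of the libraries, which was added after seeing the data). The forkhead share of protein-coding TPM, 0.0401%, was 0.0899% by expected counts, 0.0383% in the second quantification and 0.0135% with all rows as denominator. The FoxO share of forkhead TPM, 27.6%, was 35.7% by expected counts, 26.5% in the second quantification, and 29.2% by counts per kilobase of the leading transcript, an alternative added after seeing the data. The median log2 ratio of the members, -0.08, was -0.29 with ERCC scaling and -0.18 from TPM. The number of members over 1.5-fold apart, 1, was 2 from TPM, where Foxj2 joined Foxp2, 0 in the second quantification, 3 among members with at least 10 mean counts, 13 with no filter on counts, and 0 at 2-fold. Over all genes, shares were taken only for at least 100 mean counts, 5.68% over 1.5-fold and 1.37% over 2-fold apart. The 3 and the 13 therefore have no share of all genes beside them. Leaving out a library gave shares of protein-coding TPM of 0.0398% to 0.0404% and FoxO shares of 26.8% to 28.3%. The cause of these shifts was not tested. No called value changed sign, but Foxn3, Foxo3, Foxk2, Foxp4 and Foxm1, whose ratios lay near 1, changed sign under at least 1 scaling. No paired analysis was possible because there is 1 group. Depth limits members under 10 counts, whose ratios cannot be read.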
